A study of Mus musculus with 6 samples.

Results

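The genes described here are 5 forkhead transcription factor genes of embryonic mesenchyme, Foxd1, Foxf1, Foxf2, Foxc1 and Foxc2, out of 19938 genes measured. Each was read through a probe set that carries a single gene symbol, and where a gene had several such probe sets the one with the highest mean was used. The group was chosen by measured values of these same arrays: Foxd1 had stood out by its low level on ascending replicates 1 and 2, and its relatives were taken with it. Therefore all differences of the 5 genes between the aortic segments are given as descriptions, without a test.

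The study asked which genes depend on the embryonic origin of the aortic wall. It compared the ascending aorta, whose smooth muscle comes largely from cardiac neural crest, with the descending aorta, whose smooth muscle comes from mesoderm. Each group held 3 arrays, hybridised with total RNA of untreated tissue from wild-type mouse embryos of the C57BL/6 background aged 13.5 days postcoitum, and the segment was the single difference between the groups in the labels. The labels call the arrays biological replicates and name no embryo, litter or pool. The SDs below therefore measure the spread between these arrays, which may be partly technical. The SEs come from a linear model (limma) that draws each gene's variance toward that of all genes. They do not follow from the SDs beside them, and for widely varying genes such as Foxd1 they are smaller than those SDs alone would give. Values are log2 expression after RMA, the authors' background correction and normalisation, and are called levels.

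Forkhead factors bind DNA through a winged-helix domain, and several of them set the identity of mesenchyme in the embryo. Foxd1 marks the stromal mesenchyme of the developing kidney and progenitors of pericytes. Foxf1 and Foxf2 are active in the splanchnic mesenchyme around gut and lung, where they respond to hedgehog signals from the epithelium. Foxc1 and Foxc2 act in paraxial mesoderm, vessels and the remodelling of the aortic arch.

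Markers of the labelled tissue were present on all arrays. The smooth muscle actin gene Acta2 had levels from 13.63 to 13.77, and Tagln, an actin-binding protein of smooth muscle, between 12.04 and 12.62. Array medians ran from 7.14 to 7.22. Across genes, ascending replicate 3 correlated at 0.9932 to 0.9975 with the descending arrays and at 0.9907 and 0.9858 with ascending replicates 1 and 2, where genes are not independent replicates. It therefore lay with the descending arrays against its label, and for the forkhead genes, their neighbours and the pathway genes, differences that passed or that it moved by over 1.5 times are given with and without it. Over all 6 arrays 0 of 19938 genes, or 0%, passed an adjusted p of 0.05 in limma, while 1852 had an unadjusted p under 0.05. The same count was 0 in the per-gene test without moderated variance. Without ascending replicate 3 the limma count was 933, or 4.68% of genes, 2.61% lower and 2.07% higher in ascending aorta. Since the array left out was picked from the data, the p-values of the remaining 5 arrays are probably too small.

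Foxd1, the stromal factor (probe set 10406845), had levels of 6.92, 6.10 and 10.32 on ascending replicates 1, 2 and 3 and of 9.80, 9.99 and 9.98 on descending replicates 1, 2 and 3. The segments overlapped: ascending replicates 1 and 2 lay far below every descending array, and ascending replicate 3 lay above all of them. The ascending mean was 7.78 ± 2.24 (SD, n = 3) and the descending mean 9.92 ± 0.11 (SD, n = 3), a difference of -2.14 ± 0.95 (SE) on the log2 scale. Set against the descending mean, Foxd1 was 8.02-fold lower on ascending replicate 1, 14.2-fold lower on replicate 2 and 1.32-fold higher on replicate 3. These and the folds below are ratios of RMA values, and no detection call was used, so where a low level is not above background the fold is a lower bound. Leaving out ascending replicate 3 gave a difference of -3.41, and leaving out ascending replicate 2 gave -1.30. In bulk tissue fewer Foxd1-expressing cells and less Foxd1 RNA per cell cannot be told apart.

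Foxf2 (probe set 10404404), a factor of gut mesenchyme and of brain pericytes, had the same low arrays at a smaller size. Its levels were 6.87, 6.28 and 7.93 on ascending replicates 1, 2 and 3 and 7.98, 7.66 and 7.77 on descending replicates 1, 2 and 3. Again ascending replicates 1 and 2 lay below every descending array while replicate 3 lay among them. The ascending and descending means were 7.03 ± 0.84 and 7.80 ± 0.16 (SD, n = 3), which differed by -0.77 ± 0.37 (SE). Relative to the descending mean, Foxf2 was 1.91-fold lower on ascending replicate 1 and 2.87-fold lower on replicate 2. The difference was -1.23 when ascending replicate 3 was left out, and without ascending replicate 2 it was -0.40. Foxd1 and Foxf2 thus shared their low arrays, and for both genes ascending replicate 2 was lower than ascending replicate 1.

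Foxf1 (probe set 10576046), the close relative of Foxf2 and a factor of lung and gut mesenchyme, did not share that pattern. It stood at 10.76, 8.52 and 9.44 on ascending replicates 1, 2 and 3 and at 8.82, 9.22 and 9.33 on descending replicates 1, 2 and 3. Ascending replicate 1 was the highest array and ascending replicate 2 the lowest, with all descending arrays between them. The means were 9.57 ± 1.12 and 9.12 ± 0.27 (SD, n = 3), and the difference of 0.45 ± 0.49 (SE) rested on ascending replicate 1. Without that array it turned to -0.14, and without ascending replicate 2 it was 0.98. A second Foxf1 probe set, 10576049, gave the same picture, with 10.53 on ascending replicate 1 and 7.98 on replicate 2 against 8.48 to 8.84 on the descending arrays. Foxf1 was 3.11-fold higher on ascending replicate 1 than the descending mean and 1.51-fold lower on replicate 2. Over 6 arrays it correlated at -0.140 with Foxd1 and -0.047 with Foxf2. Without ascending replicate 1 these values were 0.843 and 0.740, so the unlike pattern rested on that array.

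Foxc1 and Foxc2, the factors of paraxial mesoderm and arch vessels, lay close together on all 6 arrays. Foxc1 (probe set 10404407) had levels of 9.98, 10.12 and 10.05 on ascending replicates 1, 2 and 3 and of 9.82, 10.02 and 9.98 on descending replicates 1, 2 and 3. Foxc2 (probe set 10576051) had levels of 10.75, 10.59 and 10.42 on the ascending and 10.47, 10.40 and 10.52 on the descending arrays in the same order. The segments overlapped for both genes, although for Foxc2 ascending replicates 1 and 2 lay above every descending array. The Foxc1 mean was 10.05 ± 0.07 on the ascending and 9.94 ± 0.11 (SD, n = 3) on the descending arrays, and the Foxc2 means were 10.59 ± 0.16 and 10.46 ± 0.06 (SD, n = 3). The differences were 0.11 ± 0.09 for Foxc1 and 0.13 ± 0.10 (SE) for Foxc2. The Foxc1 difference was 0.05 without descending replicate 1, and that of Foxc2 ranged from 0.05 without ascending replicate 1 to 0.21 without ascending replicate 3.

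**Figure D1:**
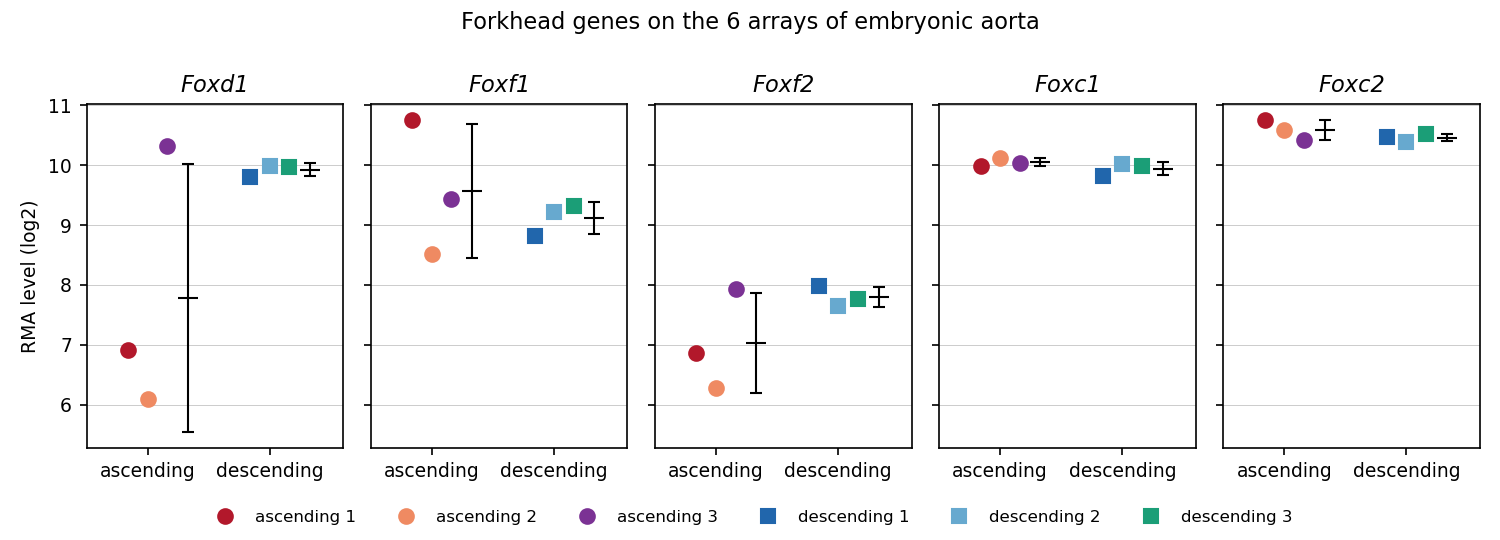
Level (log2, RMA) of each of the 5 forkhead genes on the 3 ascending arrays (circles) and 3 descending arrays (squares), with the mean and SD of each segment in black. Foxd1 and Foxf2 are low on ascending replicates 1 and 2 and not on replicate 3, Foxf1 is high on ascending replicate 1, and all Foxc1 and Foxc2 values lie between 9.82 and 10.75.

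None of the 5 genes had ascending arrays that lay entirely on one side of the descending arrays, against 14.8% of all genes. Ascending replicates 1 and 2 alone lay beyond the descending arrays for 3 of the 5 (34.5% of all genes), Foxd1 and Foxf2 below them (18.9%) and Foxc2 above them (15.6%). Without ascending replicate 3, 2 of the 5 differed by at least 2-fold, against 1.44% of all genes. These shares come from the contrast that chose the genes, and the spans below come from the same arrays, so nothing is read from either. The spans of the 5 genes, the highest minus the lowest of the 6 levels, were 4.22 for Foxd1, 2.23 for Foxf1, 1.70 for Foxf2, 0.35 for Foxc2 and 0.29 for Foxc1, so 3 of the 5 spanned at least 1, against 4.61% of all genes. A span as large as that of Foxd1 was seen for 3 genes of 19938, one as large as that of Foxf1 for 87 and one as large as that of Foxf2 for 218. The spans of Foxc1 and Foxc2 were ordinary, reached or exceeded by 62.1% and 48.1% of genes. Without ascending replicate 3, the Foxd1 difference was the largest in size of all 19938 genes, which is the value that drew attention to the gene.

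The upstream sequences of Foxd1, Foxf2 and Foxc1 are shown because the first pair moved together across the arrays while Foxc1, the gene next to Foxf2, did not. RefSeq promoter entries of GRCm38.p6 were matched for these 3 of the 5 genes. Each line gives the 250 bases that end just before the annotated start, all on the plus strand, from chr13:98353995-98354244 for Foxd1, chr13:31625566-31625815 for Foxf2 and chr13:31806396-31806645 for Foxc1. Capitals mark matches to the CCAAT box (CCAAT), the core of the TATA box (TATAA) and the GC box bound by Sp1 (GGGCGG) on either strand.
Foxd1: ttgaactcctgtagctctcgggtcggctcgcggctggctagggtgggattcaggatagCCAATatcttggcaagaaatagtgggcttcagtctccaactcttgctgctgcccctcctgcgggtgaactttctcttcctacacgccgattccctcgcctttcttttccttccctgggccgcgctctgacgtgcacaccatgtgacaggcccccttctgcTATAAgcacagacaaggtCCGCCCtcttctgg
Foxf2: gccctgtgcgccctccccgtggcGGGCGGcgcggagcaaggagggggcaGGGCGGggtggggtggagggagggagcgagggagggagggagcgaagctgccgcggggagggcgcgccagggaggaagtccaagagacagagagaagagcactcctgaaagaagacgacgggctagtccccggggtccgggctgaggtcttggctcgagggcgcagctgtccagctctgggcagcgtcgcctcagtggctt
Foxc1: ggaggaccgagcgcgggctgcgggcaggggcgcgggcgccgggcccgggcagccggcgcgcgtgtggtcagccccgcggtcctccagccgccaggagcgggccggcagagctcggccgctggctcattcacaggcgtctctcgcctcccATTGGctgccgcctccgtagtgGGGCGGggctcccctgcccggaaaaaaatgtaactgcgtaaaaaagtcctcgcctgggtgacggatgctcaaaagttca
The 3 windows differ in base composition. CG dinucleotides numbered 12 upstream of Foxd1, 21 upstream of Foxf2 and 29 upstream of Foxc1, where the median over 32851 promoter entries was 6, and the share of G and C was 57.2%, 71.6% and 70.8%. TATAA was found upstream of Foxd1, starting 32 bases before the annotated start, and in neither of the other windows. It occurs in 22.8% of all promoter entries. CCAAT was found upstream of Foxd1 and Foxc1 (33.8% of entries), and GGGCGG upstream of all 3 genes (32.7% of entries). None of these matches overlapped another. The forkhead motif TGTTTAC (3.17% of entries) and the GLI motif GACCACCCA (0.225% of entries), searched on both strands, had no match in these windows. A match is a string of letters and was not tested as a binding site.

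In the mouse genome Foxf2 and Foxc1 lie side by side with Foxq1 on chromosome 13, and Foxf1 and Foxc2 lie near each other with Foxl1 on chromosome 8. Forkhead genes of the same cluster differed in their levels on these arrays, although Foxf1 and Foxc2 shared their highest array. Foxf2 was low on ascending replicates 1 and 2 while Foxc1 had its highest level on ascending replicate 2, and Foxq1, an epithelial and gastric factor, ranged from 6.90 to 7.08. Foxf1 ranged over 2.23 while Foxc2 ranged over 0.35, and Foxl1, a factor of the gut's subepithelial mesenchyme, lay between 7.08 and 7.34. Both Foxf1 (10.76) and Foxc2 (10.75) were highest on ascending replicate 1. They correlated at 0.602 over 6 arrays and at -0.688 without that array. Of the 17 protein-coding genes that are nearest to the 5 genes and not forkhead genes themselves, 0 passed in limma over 6 arrays (0% of all genes), 2 of them had an unadjusted p under 0.05, and 1 passed without ascending replicate 3 (4.68% of all genes). That gene, the kinase gene Mylk4, is a further neighbour of Foxf2 and Foxc1. Its levels were 5.81, 5.60 and 6.00 on the ascending and 6.82, 6.45 and 6.23 on the descending arrays. All ascending arrays lay below all descending ones. The difference was -0.69 over 6 arrays, and Mylk4 fell by 0.79 on the log2 scale without ascending replicate 3 (adjusted p = 0.0409 by limma, 5 arrays). Next to Foxd1, the transcription factor gene Btf3 ranged from 11.99 to 12.22. The endocytic adaptor gene Fcho2, further off on the other side, had levels of 10.15, 10.37 and 10.39 on the ascending and 10.65, 10.52 and 10.45 on the descending arrays. The segments did not overlap for Fcho2 and for 2 other neighbours, Mylk4 and Tmem171, all lower on the ascending arrays (8.95% of all genes).

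The other forkhead genes varied little. Of 39 listed, 38 were measured, and their median span was 0.29, close to the 0.34 of all genes. The 5 genes were chosen with values of these arrays known, so their place in the family is a description. Foxd1, Foxf1 and Foxf2 had the largest spans of the 43 forkhead genes measured in all. The next was Foxn1, the factor of thymic epithelium, with a span of 1.05, followed by Foxn3, a broadly expressed factor. None of the 38 passed over 6 arrays or without ascending replicate 3 in limma, against 0% and 4.68% of all genes, and 3 had an unadjusted p under 0.05 over 6 arrays. Their median difference was -0.06, against -0.02 over all genes. The segments did not overlap for 5 of the 38, against 14.8% of all genes: Foxo6 lay higher on the ascending arrays (5.87% of all genes), and Foxa1, Foxe3, Foxl1 and Foxp1 lay lower (8.95%).

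Foxd2, a paralog of Foxd1 and also a factor of embryonic mesenchyme, had levels of 7.81, 7.63 and 8.14 on the ascending and 8.29, 8.19 and 8.04 on the descending arrays. As for Foxd1, ascending replicates 1 and 2 were its lowest arrays, but the difference without ascending replicate 3 was -0.46 and did not pass (adjusted p = 0.0644 by limma). Foxk1, a factor of muscle progenitors and metabolism, gave 10.29, 10.27 and 10.57 against 10.90, 10.53 and 10.65, a difference of -0.32 ± 0.13 (SE) over 6 arrays. Foxn3 differed by 0.29 ± 0.17 (SE), and by 0.48 without ascending replicate 3 (adjusted p = 0.0595 by limma). It passed there when its probe sets were averaged. Foxp1 and Foxp2, repressors active in heart and lung, differed by -0.25 ± 0.11 and -0.15 ± 0.12 (SE).

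**Figure D2:**
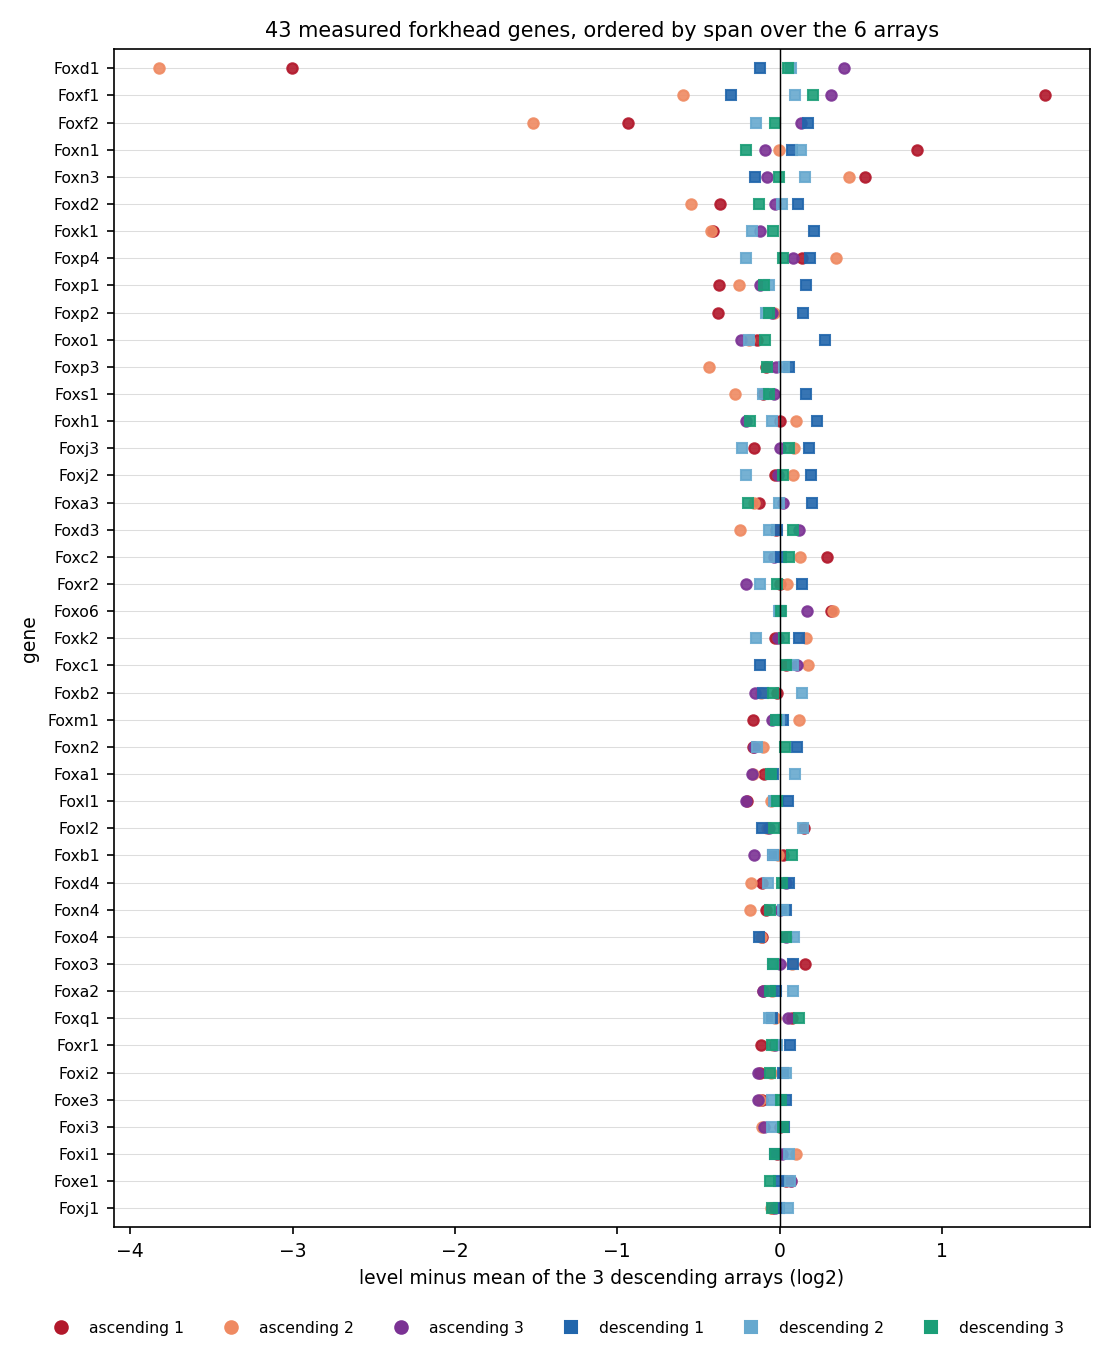
Level on each array minus the mean of the 3 descending arrays (log2) for the 43 measured forkhead genes, ordered by their span over the 6 arrays. The ascending arrays (circles) leave the vertical line of the descending mean furthest for Foxd1, Foxf1 and Foxf2, whose spans are 4.22, 2.23 and 1.70, while the median span of the other 38 genes is 0.29.

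Hedgehog signalling, which drives Foxf1 and Foxf2 in gut and lung mesenchyme, was read through 16 measured genes of 17 listed. By their means 13 of the 16 were lower in ascending aorta, against 56.2% of all genes, and the median difference was -0.16 against -0.02. In limma 0 of the 16 passed over 6 arrays (0% of all genes), with 2 at an unadjusted p under 0.05. Without ascending replicate 3, 3 were lower (2.61% of all genes) and 0 higher (2.07%): Gli1, Gli3 and Disp1. For 1 of the 16, Kif7, the segments did not overlap over 6 arrays, with the ascending arrays lower (14.8% of all genes, 8.95% lower).

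Gli1, the transcription factor that is also a standard target of the pathway, had levels of 7.56, 7.21 and 8.42 on ascending replicates 1, 2 and 3 and of 8.40, 8.41 and 8.45 on the descending arrays. Ascending replicates 1 and 2 lay below every descending array and replicate 3 lay among them, as for Foxf2. Gli1 fell by 1.04 on the log2 scale without ascending replicate 3 (adjusted p = 0.00305 by limma, 5 arrays), and over 6 arrays the difference was -0.69 ± 0.27 (SE). Gli3, which is cut into the main repressor of the pathway, gave 9.85, 9.94 and 10.47 on the ascending and 10.86, 10.47 and 10.40 on the descending arrays. Its difference was -0.49 over 6 arrays, and it fell by 0.68 without ascending replicate 3 (adjusted p = 0.039 by limma). Disp1, which releases the lipid-bound ligand from sending cells, gave 10.36, 10.24 and 11.12 against 10.93, 10.77 and 11.08, a difference of -0.35 ± 0.22 (SE) over 6 arrays. It fell by 0.62 in the same 5 arrays (adjusted p = 0.0225 by limma). With the replicate number as a block, Gli3 and Disp1 did not pass (adjusted p = 0.0767 and 0.107 by limma).

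Hhip, a hedgehog-binding decoy that is itself a target, stood at 6.40, 6.85 and 7.30 on the ascending and 7.10, 7.49 and 7.42 on the descending arrays, and its difference of -0.71 without ascending replicate 3 did not pass (adjusted p = 0.0554 by limma). The receptor gene Ptch1, also a target, ranged from 9.80 to 10.20 and differed by -0.12 ± 0.10 (SE), or by -0.06 without ascending replicate 3. Smo, the signal transducer, differed by -0.04 ± 0.12 (SE), or by -0.01 without that array. Hhat, which attaches the lipid to the ligand, spanned 0.87 and differed by -0.34 ± 0.16 (SE), and the co-receptor genes Cdon and Boc spanned 0.73 and 0.66, against the median span of 0.34 over all genes. The ligand genes Shh, Ihh and Dhh differed by 0.02, -0.07 and -0.08 over 6 arrays, each less than its SE.

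**Figure D3:**
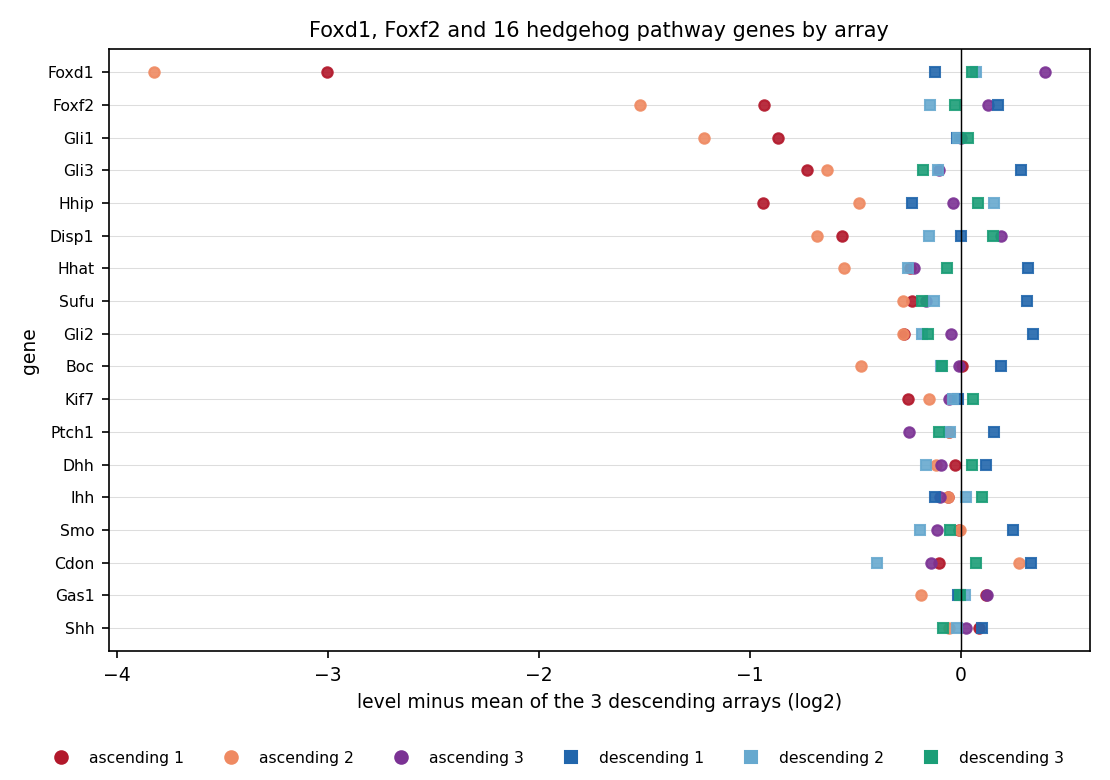
Level on each array minus the mean of the 3 descending arrays (log2) for Foxd1, Foxf2 and 16 hedgehog pathway genes ordered by their difference. Gli1, Gli3 and Hhip are lower on ascending replicates 1 and 2 than on the other arrays, as Foxd1 and Foxf2 are, while the ascending arrays of Ptch1 and Smo lie below the descending mean, with differences of -0.12 and -0.04.

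A list of 8 genes that work in other tissues has linked to these factors was also read. In limma 0 of the 8 passed over 6 arrays, 2 had an unadjusted p under 0.05, and 1 passed without ascending replicate 3 (4.68% of all genes). The median difference was -0.21 against -0.02 over all genes. That gene was Tbx1, a T-box factor of the pharyngeal arches that Foxc1 and Foxc2 activate in head mesenchyme. Its levels were 9.45, 9.43 and 10.42 on the ascending and 10.42, 10.22 and 10.34 on the descending arrays, so ascending replicates 1 and 2 were again the low arrays. The difference was -0.56 ± 0.25 (SE) over 6 arrays, and Tbx1 fell by 0.89 without ascending replicate 3 (adjusted p = 0.00271 by limma). Bmp4, a growth factor of gut mesenchyme linked to the Foxf genes, lay higher on all ascending arrays (10.89, 11.12 and 10.82) than on the descending arrays (10.48, 10.24 and 10.77), and Itgb3, an integrin subunit linked to Foxc genes in endothelium, lay lower on all of them. They differed by 0.45 ± 0.15 and -0.49 ± 0.13 (SE) over 6 arrays and did not pass (adjusted p = 0.53 by limma for both). The segments did not overlap for 3 of the 8 genes (14.8% of all genes): Bmp4 lay higher (5.87%), and Itgb3 and Dll4 lay lower (8.95%). Cxcr4, a chemokine receptor of endothelium, differed by -0.37 ± 0.21 (SE).

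The genes most like each forkhead gene were found by Pearson's r over the 6 arrays, among genes whose own levels spanned at least 1. For Foxd1 the most similar were Plvap, a protein of endothelial fenestrae (r = 0.996), the peptidase gene Naalad2 (0.996), Gli1 (0.994) and the trunk patterning genes Hoxc5 and Hoxa9 (0.992 each). The most opposite were Nts, the neurotensin precursor gene (-0.999), Mylk3, the cardiac myosin kinase gene, and Colec10, a collectin gene (-0.998 each). For Foxf2 the most similar were Drp2, a dystrophin relative (0.999), the protease genes Adamts18 (0.997) and Prss23 (0.995), Plpp3, a lipid phosphatase (0.996) and Ednrb, the endothelin receptor type B (0.996). The most opposite were Pgam2 (-0.993), Sema3c, a guidance ligand of neural crest entering the outflow tract (-0.991), and Crb2 (-0.989). Levels of Foxd1 form a low pair and a high set of 4 arrays, so these coefficients rest on the gap between them. Of the 918 other genes that spanned at least 1, 52.1% had an r of at least 0.9 in size with Foxd1 and 53.1% with Foxf2, so many other genes were nearly as alike as those named. Foxd1 and Foxf2 had an r of 0.974 with each other.

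For Foxf1 just 1.2% of those genes had an r of at least 0.9 in size. The most similar were Dmrt2, a somite factor (0.974), Ifitm1 (0.967), Trgv1, a T cell receptor gamma segment (0.965), Plac8 (0.963) and Sptssb (0.948), all highest on ascending replicate 1. Foxf1 was highest there too, so these coefficients rest largely on that array. The most opposite were the sympathetic and chromaffin genes Dbh (-0.890), Chga (-0.869) and Th (-0.829), which were lowest on ascending replicate 1 and highest on descending replicate 1. Dbh had levels of 6.55, 7.61 and 7.42 on the ascending and 8.17, 7.69 and 7.51 on the descending arrays.

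Markers of other tissues moved with the array on which Foxf1 was high. A list of 9 thymus and early lymphoid markers, drawn up after these values were seen, had 8 measured members, and 7 of them were highest on ascending replicate 1, against 16.8% of all genes. Because the values were known when the list was made, nothing is read from that count. Cd3g, a subunit of the T cell receptor complex, stood at 7.59 on ascending replicate 1 and at 5.13 to 5.40 on the other arrays. Ccl25, the chemokine of thymic epithelium, stood at 8.08 against 6.78 to 6.96, and Foxn1 at 7.02 against 5.96 to 6.30. Ptprc, the leukocyte antigen CD45, was the exception: its highest level was 7.30, on descending replicate 2, and its lowest 6.76, on ascending replicate 2. The summed linear level of the list was 1108 on ascending replicate 1, 589 and 631 on ascending replicates 2 and 3 and 600 to 680 on the descending arrays. Markers of lung and gut epithelium summed to 1664 on ascending replicate 1, 1268 on replicate 2 and 1020 on replicate 3, against 1017 to 1032 on the descending arrays, and 3 of the 8 were highest on ascending replicate 1 (16.8% of all genes). The keratin gene Krt8, which passed as higher without ascending replicate 3 (2.07% of all genes), stood at 9.68, 9.25 and 8.40 on the ascending and 8.24 to 8.46 on the descending arrays. Krt8 was the brightest of the 8 and weighed most in their sum. The list's median on ascending replicate 1 lay just 0.04 above the descending means. Epcam, an adhesion gene, stood at 6.82 on ascending replicate 1 and 5.90 to 6.19 elsewhere. The lung and gut factor genes Foxa1 and Foxa2 and the surfactant gene Sftpc were below their descending means on ascending replicate 1. Markers of lung and gut mesenchyme, in which Foxf1 is normally active, summed to 1538, 1083 and 1728 on the ascending and 1386 to 1637 on the descending arrays. Of these 6, 1 was highest on ascending replicate 1 (16.8% of all genes), Barx1, at 9.08 against 8.11 to 8.56 elsewhere. The median of that list on ascending replicate 1 lay at -0.24 from the descending means. Log2 values after RMA have no zero, so no marker can be read as absent. The part of these tissues in the Foxf1 values was not tested.

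**Figure D4:**
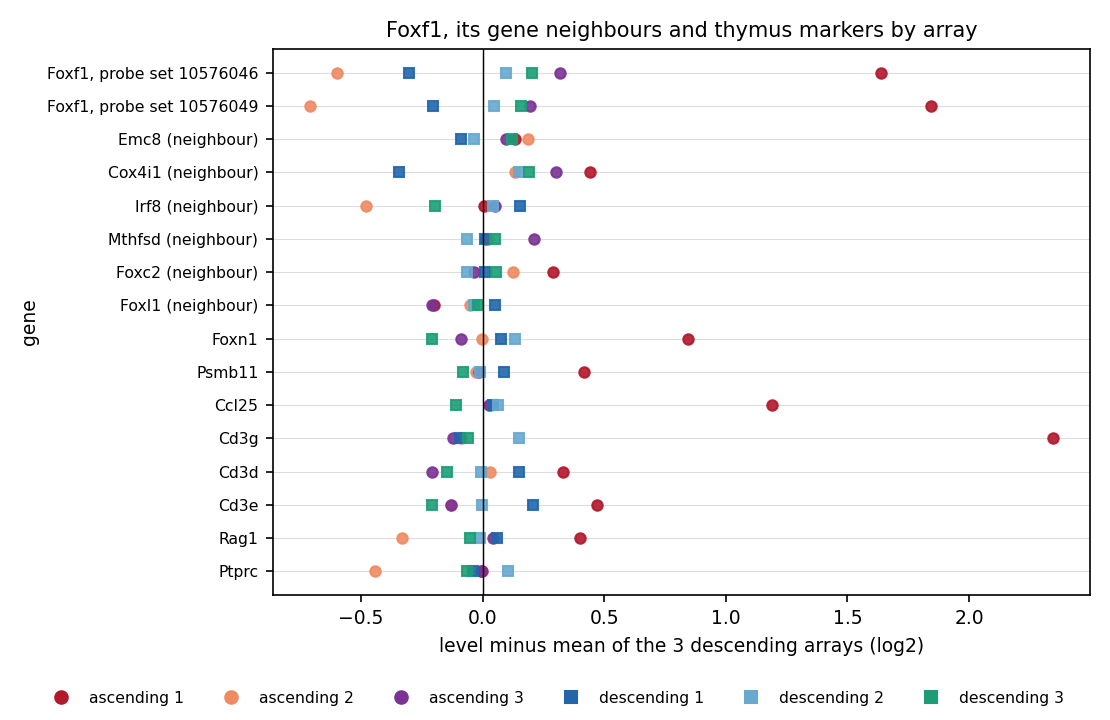
Level on each array minus the mean of the 3 descending arrays (log2) for both Foxf1 probe sets, the 6 nearest protein-coding genes of Foxf1 and 8 thymus and lymphoid markers. Ascending replicate 1 stands to the right for Foxf1 (3.11-fold over the descending mean by its main probe set), Cd3g, Ccl25 and Foxn1, and stays near the other arrays for Mthfsd and Irf8. It is also the highest array for the neighbours Cox4i1 (11.04) and Foxc2 (10.75). For Emc8 (9.08) it lies just above the descending arrays, and for Foxl1 (7.09) below them.

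Markers of several cell types also moved with the arrays on which Foxd1 and Foxf2 were low. Mesothelial and epicardial markers, 8 of 8 measured, summed to 11582 and 13040 on ascending replicates 1 and 2, to 5681 on replicate 3 and to 4852 to 5449 on the descending arrays. Cardiac muscle markers, 8 of 8 measured, summed to 7140, 9616 and 5362 on ascending replicates 1, 2 and 3 and to 3831 to 4921 on the descending arrays. The median of the cardiac list lay 0.23, 0.52 and 0.16 above the descending means on those ascending arrays. Its members differed: Myl7 was highest on ascending replicate 3 (9.93). For 3 of the 8, Tnni1, Actc1 and Nppa, all ascending arrays lay above all descending ones (5.87% of all genes). Endothelial markers, 8 of 8 measured, ran the other way, at 12767, 13473 and 18765 on the ascending and 19300 to 22457 on the descending arrays. Macrophage markers, 7 of 7 measured, summed to 5134, 3109 and 8453 on the ascending and 6880 to 7606 on the descending arrays. By their means 6 of the 7 were lower and 1 higher in ascending aorta. On ascending replicate 1 C1qa (9.43 against 8.43 to 9.27) and Aif1 (6.31 against 6.16 to 6.28) lay above every descending array. The list's median there lay at -0.14 from the descending means, and at -0.92 on ascending replicate 2. Without ascending replicate 3, 6 mesothelial markers passed as higher in limma (2.07% of all genes): Upk1b, Upk3b, Msln, Lrrn4, Krt19 and Tcf21. In the same 5 arrays Wt1 differed by 0.54 and did not pass (adjusted p = 0.0569 by limma), and Tbx18 differed by -0.05. Of the 8 cardiac markers 2 also passed as higher, the troponin genes Tnnt2 and Tnni1. The cardiac troponin I gene Tnni3 differed by 0.19 and did not pass (adjusted p = 0.706 by limma, 5 arrays). The endothelial genes Kdr, Emcn, Cdh5 and Esam and the macrophage genes Lyve1, Mrc1 and Cd68 passed as lower (2.61%). With the replicate block Cdh5, Esam and Cd68 did not pass (adjusted p = 0.141, 0.114 and 0.129 by limma), and none of these genes passed without moderated variance. Cd68 was also lost after repeated quantile normalisation, median-centring and with a variance trend, and Lrrn4 after quantile normalisation. The part of these cells in the Foxd1 and Foxf2 values was not tested.

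Kidney tissue, where Foxd1 is best known, was read through 9 markers of kidney and gonad epithelium, which summed to 1353 to 1447 on the ascending and 1375 to 1536 on the descending arrays. The nephric factor genes Pax2 and Pax8 ranged from 6.89 to 7.07 and from 6.72 to 6.95, and 0 of the 9 passed over 6 arrays (0% of all genes) or without ascending replicate 3 (4.68%) in limma, with 2 at an unadjusted p under 0.05 over 6 arrays. The nephron progenitor factor gene Six2 was higher on all ascending arrays (8.52, 7.72 and 7.45) than on the descending arrays (7.15, 7.32 and 7.18). Its partner gene Eya1 differed by -0.41 over 6 arrays and by -0.63 without ascending replicate 3. The segments did not overlap for 2 of the 9 markers (14.8% of all genes), with Six2 higher (5.87%) and Cdh16 lower (8.95%).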

How the data were processed

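Per the submitters' processing notes, the authors processed the arrays with RMA and Partek 6.6; no source used here gives the settings or the annotation. The deposited values are log2 expression of 35556 probe sets, with the scale read from the values (2.53 to 14.6). RMA equalises the arrays and pulls small signals toward background, which shrinks differences of dim genes.

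Names came from the platform's annotation. Of 35556 probe sets, 21789 had 1 symbol, and the one with the highest mean per gene left 19938 genes. Of the symbols, 0 differed from the RefSeq table of GRCm38.p6. Members of the lists without a value are not analysed here.

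Segments were compared with limma 3.58.1 in R 4.3.3 (lmFit, eBayes, two-sided, Benjamini-Hochberg over all genes), over 6 arrays and without ascending replicate 3. Differences are ascending minus descending, with the moderated SEs of that fit. The scripts were tested on simulated data. Summed marker levels add 2 to the power of each log2 value. With 3 arrays in each group the exact permutation p is at least 0.1, and no such test was run.

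The 5 genes and all lists were chosen with earlier results of these data known, and the thymus list after its values were seen. Named were all list members that passed, some of the 4 per list with the largest difference (for other forkhead genes 3, plus the 3 highest means), the 5 most similar and 3 most opposite genes, and others chosen after their values were seen. Marker lists covered smooth muscle, endothelium, mesothelium, cardiac muscle, kidney, adrenal, lung and gut, cartilage, sympathetic neurons, pericytes, macrophages and thymus. Alternatives were repeated quantile normalisation, median-centring, filters on dim genes, averaged probe sets, other variance models, array weights, a replicate block and leaving out each array. Tables and plots used Python 3.11.15, pandas 2.3.3 and matplotlib 3.10.9.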

Additional observations from a re-analysis of the deposited data

How the results depend on the processing

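Over 6 arrays the limma count was 0 under each normalisation, filter, variance model, array weighting and the replicate block. Leaving out each array in turn gave 0 to 933 genes, with 933 without ascending replicate 3. The 933 became 0 without moderated variance and 425 with the replicate block, and stayed between 700 and 965 under the other alternatives. The 3 hedgehog calls, Tbx1 and Mylk4 were all lost without moderated variance, and with the block Gli3 and Disp1 were lost; Mylk4 was too dim to enter the filtered fits. The labels do not say whether the replicate numbers pair the arrays, so the block is just an alternative. Deviations of same-numbered arrays correlated at -0.0798, -0.0548 and 0.024, and ascending replicate 1 correlated best with descending replicate 2 (0.168). With 3 arrays a group such correlations cannot settle whether the arrays are paired. Of 26 list genes called without ascending replicate 3, 0 passed without moderated variance, 19 with the replicate block, and 24 to 26 with the other settings (24 of the 24 tested under the stricter filter); 0 changed direction. The member differences moved by less than the larger group SD under every alternative run, although that of Foxf1 changed sign without ascending replicate 1. For the left-out arrays this could not come out otherwise. Dropping 1 of 3 arrays always moves a group mean by less than the SD of that group, so no stability is read from it. Left-out arrays gave -3.41 to -1.30 for Foxd1, -0.14 to 0.98 for Foxf1, -1.23 to -0.40 for Foxf2, 0.05 to 0.15 for Foxc1 and 0.05 to 0.21 for Foxc2. Genes whose segments do not overlap numbered 2955, and from 2392 to 2966 under the alternatives. With 3 arrays a group, small differences such as those of Foxc1 and Foxc2 are within reach of the spread.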

Other observations

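The remaining marker lists are given as values. Smooth muscle markers summed to 30080, 27762 and 24066 on ascending replicates 1, 2 and 3 and to 26136 to 26815 on the descending arrays. By their means 3 of the 7 were higher and 4 lower in ascending aorta. The muscle filament gene Des stood at 10.38, 10.82 and 8.68 on the ascending and 8.36 to 8.80 on the descending arrays. Des passed as higher without ascending replicate 3 (2.07% of all genes). The myosin gene Myh11 (-0.53) and its kinase gene Mylk (-0.27) lay lower on all ascending than on all descending arrays (8.95% of all genes). Pericyte markers, a cell type that Foxd1 progenitors can form, summed to 11421, 11076 and 8352 on the ascending and 9574 to 11322 on the descending arrays. Rgs5, at 12.19, 12.19 and 10.95 against 11.29 to 11.33, was the 1 of 6 with a higher ascending mean. It passed as higher without ascending replicate 3 (adjusted p = 0.00169 by limma, 2.07% of all genes). The channel genes Kcnj8 (-0.56) and Abcc9 (-0.43), and Cspg4, Notch3 and Foxs1, had lower ascending means, and the list's median on ascending replicates 1 and 2 lay at -0.13 and -0.17 from the descending means. Foxs1, a forkhead gene of pericytes, ranged from 8.10 to 8.54. Cartilage and sclerotome markers summed to 2408, 2057 and 2335 against 1984 to 2452. Without ascending replicate 3 the cartilage gene Col2a1 passed as lower (2.61% of all genes) and Acan as higher (2.07%) in limma. Both were lost with the replicate block. Adrenal and gonadal steroid cell markers summed to 388, 368 and 345 against 359 to 385. Sympathetic neuron markers, 5 of 6 measured, summed to 2960, 3881 and 2130 against 2315 to 2829. Hand2, which the outflow tract also expresses, stood at 10.01, 10.71 and 8.58 against 8.44 to 8.66. It passed as higher without ascending replicate 3 (adjusted p = 0.00205 by limma, 2.07% of all genes). In that list 3 of 5 had lower ascending means, Th (-0.46), Dbh (-0.59) and Stmn2 (-0.16).

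Wnt2, a ligand of lung mesenchyme, had levels of 7.76, 6.91 and 8.62 on ascending replicates 1, 2 and 3 and 8.12, 8.65 and 8.42 on the descending arrays. Ascending replicates 2 and 1 were its lowest arrays, as for Foxf2. The difference was -1.06 without ascending replicate 3 and did not pass (adjusted p = 0.0534 by limma). It was singled out after its values were seen.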
